A study of Homo sapiens with 6 samples.

Results

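The 10 genes SPRY1, SPRY2, SPRY4, SPRED1, SPRED2, SPRED3, ETV1, ETV4, ETV5 and PHLDA1 are outputs and feedback inhibitors of the ERK mitogen-activated protein kinase pathway. They were chosen by name, as every probe set that the platform annotation gives to 1 of these genes alone, which gave 35 of 49193 probe sets and 10 of the 18129 genes tested. Expression was measured in UMUC3-c31 cells, a bladder cancer line by the series title, on 3 arrays of cells given 10 nM R1881, a synthetic androgen, for 24 h and on 3 arrays of cells given ethanol vehicle, biological replicates by the series' design text. Both groups had first spent 24 h of serum starvation in serum stripped with charcoal, so that neither was in full serum. The labels do not say how the c31 line was derived, and the series names no further allele, vector or clone.

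Growth factor receptors signal through RAS, RAF and MEK to the kinases ERK1 and ERK2, which switch on genes that in turn damp the signal. Sprouty proteins act between the receptor and RAF, and SPRED proteins bring the RAS inhibitor neurofibromin to the membrane. The PEA3 factors ETV1, ETV4 and ETV5 are ETS transcription factors through which ERK signalling reaches genes of growth and invasion, and their transcripts, with those of the Sproutys and PHLDA1, are widely read as markers of ERK output.

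The values are log2 expression from RMA, so a difference of 1 is a doubling, and they compare a probe set only with itself. The array medians lay between 5.49 and 5.51. The R1881 arrays scored 9.41 to 10.2 on the first principal component and the vehicle arrays -14.0 to -7.24. On the second component vehicle replicate 1, at 11.04, was far from vehicle replicates 2 and 3, at -8.21 and -6.99. R1881 replicate 1 lay to the same side, at 5.69, against -0.67 and -0.87 for R1881 replicates 2 and 3. FKBP5, a cochaperone of steroid receptors that androgen induces, was higher in all R1881 arrays, at 10.04 ± 0.03 against 8.55 ± 0.06 in vehicle arrays (SD, n = 3 each). Of the other androgen response genes looked at, KLK3 and TMPRSS2, classic targets in the prostate, stood at 0.11 and 0.07 and did not pass (limma adjusted p = 0.566 and 0.703), and CD44, which the series title names, fell by 0.28 on the log2 scale (adjusted p = 0.0468). Of 14 measured urothelial and epithelial markers, 5 lay above the background level of 4.99 in at least 1 group: KRT7, KRT8, KRT18, GATA3 and UPK1A. The uroplakins UPK1B, UPK2 and UPK3A, CDH1 and EPCAM lay below it. Among these epithelial markers KRT7 rose by 0.40 and KRT18 fell by 0.37 on the log2 scale (adjusted p = 0.0192 and 0.00830). All 7 mesenchymal markers lay above background, with a summed log2 level of 62.89 to 63.0 in R1881 arrays and 60.22 to 61.1 in vehicle arrays. Of these SNAI2 rose by 1.53 and FN1 by 0.73 (adjusted p = 7.42e-05 and 0.00473), and the other 5 did not pass. Of those 5, ZEB2 stood at 0.28, and VIM, CDH2, ZEB1 and TWIST1 stood below 0. The median log2 change of the mesenchymal list was -0.04. Of the markers of other cell types, 3 of 10 fibroblast (THY1, ACTA2 and PDGFRB), 2 of 5 immune (CD68 and CD3E) and 2 of 5 endothelial ones (VWF and TEK) lay above the background level in at least 1 group. The others, among them COL1A1, DCN, PTPRC and PECAM1, lay below it. The part of the epithelial, mesenchymal and other markers in the results was not tested. Over the fibroblast list the summed log2 level was 45.07 to 45.53 in R1881 arrays and 44.93 to 45.84 in vehicle arrays, over the immune list 22.54 to 23.04 and 22.80 to 22.98, and over the endothelial list, where TEK rose, 22.43 to 23.13 and 21.02 to 21.74.

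None of the 10 genes passed the test against vehicle by limma at an adjusted p of 0.05 over all genes, where 2.42% of the 18129 genes passed, 1.6% higher and 0.816% lower. SPRY2 came nearest, with a level 0.756 times that in vehicle, followed by PHLDA1 at 0.831 times. At an unadjusted p under 0.05 stood 5 of the 10, 2 higher (SPRY1 and ETV4) and 3 lower (SPRY2, SPRY4 and PHLDA1), where 14.3% of all genes did so, 7.07% higher and 7.19% lower. In the same 5 genes the R1881 and vehicle arrays did not overlap, as in 18.5% of all genes, 8.53% higher and 9.93% lower. These shares include dim genes. Of the 18129 genes, 11049 lay above background in at least 1 group, as did 9 of the 10 on their brightest sets. The shares among genes above background are not given here, so the comparison with all genes is not like for like. Permuting single genes exactly cannot give a two-sided p under 0.10 with 3 against 3 arrays. The median log2 change of the 10 genes was -0.05, against 0 over all genes. Fewer cells that express a gene and less of its RNA per cell cannot be told apart in such bulk samples.

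**Figure D1:**
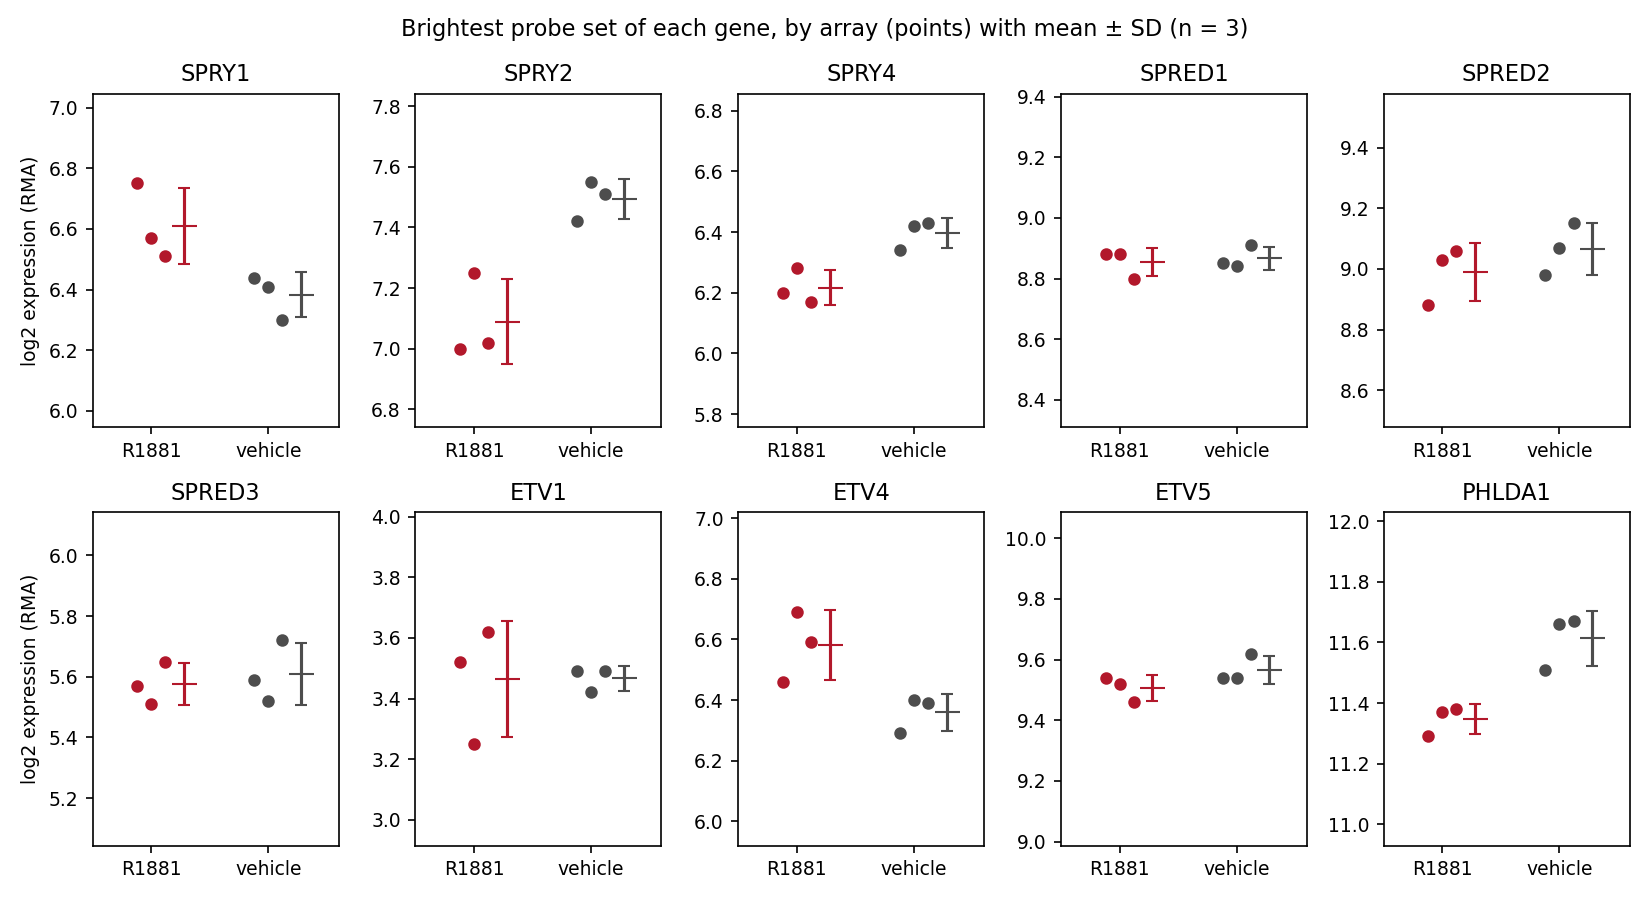
Log2 expression (y axis, RMA) of the brightest probe set of each of the 10 genes in the 3 R1881 arrays (left, red) and the 3 vehicle arrays (right, grey), each panel spanning the same range, with mean ± SD beside the points. The groups do not overlap for SPRY1, SPRY2, SPRY4, ETV4 and PHLDA1, and overlap or touch for the other 5.

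The promoters of the 2 genes with the smallest p, SPRY2 and PHLDA1, and of SPRY1, which lay the opposite way from SPRY2, are shown so that the letters that ETS factors such as the PEA3 group read can be seen. Each run is the 250 bases before the outermost annotated start of transcription, from RefSeq on GRCh38.p14, 5′ to 3′ on the strand of the gene, with the ETS core GGAA (TTCC on the other strand) in capitals. The SPRY2 window lies at chr13:80341127-80341376 on the minus strand, that of PHLDA1 at chr12:76031777-76032026 on the minus strand and that of SPRY1 at chr4:123396545-123396794 on the plus strand.
SPRY2: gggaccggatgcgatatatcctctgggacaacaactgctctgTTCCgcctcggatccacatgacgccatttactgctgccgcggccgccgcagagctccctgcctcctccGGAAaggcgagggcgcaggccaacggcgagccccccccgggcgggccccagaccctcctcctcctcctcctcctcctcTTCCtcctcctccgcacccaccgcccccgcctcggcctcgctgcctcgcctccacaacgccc
PHLDA1: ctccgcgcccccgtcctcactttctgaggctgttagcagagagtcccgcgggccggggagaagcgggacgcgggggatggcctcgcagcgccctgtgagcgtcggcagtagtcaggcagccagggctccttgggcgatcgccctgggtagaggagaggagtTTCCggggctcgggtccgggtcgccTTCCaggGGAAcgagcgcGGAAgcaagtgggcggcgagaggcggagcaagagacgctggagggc
SPRY1: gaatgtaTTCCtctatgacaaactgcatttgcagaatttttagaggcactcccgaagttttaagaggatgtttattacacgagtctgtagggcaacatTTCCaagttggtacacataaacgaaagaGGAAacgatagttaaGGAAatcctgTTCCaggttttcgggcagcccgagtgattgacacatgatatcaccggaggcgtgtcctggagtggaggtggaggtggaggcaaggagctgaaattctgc

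The SPRY2 window held the core 3 times, the PHLDA1 window 4 times and the SPRY1 window 5 times. This core is common: 92.7% of 35114 such windows of all genes held it on either strand, as did all 18 windows of the 8 genes that had an entry (10 genes less ETV4 and ETV5). The longer ETS motif CCGGAAG stood in 8.52% of all windows and in 1 of the 18, at the inner start of SPRY1. It contains the core, so the 2 searches overlap. The motif AGAACA, a single arm of the androgen and glucocorticoid receptor element, was searched on both strands and stood in 12.4% of all windows and in 4 of the 18, 2 of SPRY2 and 2 of ETV1, which overlap each other and hold the same site. The 2 in SPRY2 stood 108 and 38 bases before its inner starts, and are shown with their neighbours because the treatment was an androgen, with the arm in capitals as TGTTCT, its other strand.
SPRY2 at chr13:80340201-80340226: atttctaaccTGTTCTtcctcttggt
SPRY2 at chr13:80339682-80339707: gatcacacacTGTTCTtaatgggggt

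The full element, AGAACA and TGTTCT with 3 bases between them, stood in none of the 18 windows and in 0.00285% of all. The AP-1 motif TGANTCA stood in 1 of the 18, of SPRED3, and in 6.57% of all. The cyclic AMP response element and the CArG box of serum response factor stood in none of the 18, and in 1.65% and 1.16% of all. Matches of letters do not show binding, and no binding data were used here.

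SPRY2 encodes a Sprouty that is itself induced by growth factors and binds the ubiquitin ligase CBL. Its single probe set, 11753988_a_at, read 7.0, 7.25 and 7.02 in R1881 replicates 1 to 3, against 7.42, 7.55 and 7.51 in vehicle replicates 1 to 3. All R1881 arrays lay below all vehicle arrays, with R1881 replicate 2 nearest to them. The log2 change was -0.40 ± 0.08 (SE), a ratio of 0.756 with a 95% confidence interval of 0.666 to 0.859, and its adjusted p of 0.0513 lay just over the threshold. In the order of p over all genes it stood at place 440, where the first 438 passed.

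SPRY4, a Sprouty that restrains RAF activation, was measured by 3 probe sets, of which only 11754344_s_at lay above background. That set read 6.20, 6.28 and 6.17 in R1881 arrays, against 6.34, 6.42 and 6.43 in vehicle arrays. The groups did not overlap but lay close, R1881 replicate 2 being 0.06 from vehicle replicate 1. The log2 change was -0.18 ± 0.05 (SE) with an adjusted p of 0.166. The other 2 sets, read at 2.99 to 4.03, stood at -0.11 and 0.00.

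SPRY1, the Sprouty known from kidney development as a brake on the RET receptor, stood the other way. Its brightest set, 11717651_a_at, read 6.75, 6.57 and 6.51 in R1881 arrays, against 6.44, 6.41 and 6.30 in vehicle arrays, with no overlap. The log2 change was 0.23 ± 0.07 (SE), a ratio of 1.17 with an interval of 1.04 to 1.32 and an adjusted p of 0.231. A pair of further sets, 11717652_s_at and 11738073_s_at, carried identical values on every array and count as 1 measurement, whose groups met at 5.14 and which stood at 0.32 with an adjusted p of 0.292 over all probe sets.

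The SPRED genes, whose proteins work with neurofibromin, lay close to 0 on their brightest sets. SPRED1 was read by 5 probe sets, all above background, with log2 changes of -0.10 to 0.06. Its brightest set read 8.88, 8.88 and 8.80 in R1881 arrays, against 8.85, 8.84 and 8.91 in vehicle arrays, and the groups overlapped. The interval of its change, -0.12 to 0.10, is narrow enough to leave out changes of the size measured for SPRY2. On the next SPRED1 set, 11734825_at, the groups did not overlap, at 7.88, 7.86 and 7.92 in R1881 arrays against 8.06, 7.93 and 7.97. That set stood at -0.10, with a limma adjusted p of 0.493 over all probe sets.

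SPRED2, a relative of SPRED1 with the same domains, read 8.88, 9.03 and 9.06 in R1881 arrays and 8.98, 9.07 and 9.15 in vehicle arrays on its brightest set, with overlap. The change there was -0.08 ± 0.07 (SE), with an interval of -0.24 to 0.08. Its 3 sets did not share a direction, since 11717655_a_at stood at 0.20 (unadjusted p = 0.0261, adjusted p = 0.318 over all probe sets by limma). On that set the groups did not overlap, at 6.05, 6.18 and 6.07 in R1881 arrays against 6.02, 5.88 and 5.79 in vehicle arrays. SPRED3, the member of the family that lacks a working KIT-binding domain, read 5.57, 5.51 and 5.65 in R1881 arrays on its brightest set. The vehicle arrays read 5.59, 5.52 and 5.72 there, with overlap. Its change was -0.03 with an interval of -0.19 to 0.12, and its other set lay below background.

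Among the PEA3 factors ETV4 stood higher, ETV5 near 0 and ETV1 below background. ETV4, the founding PEA3 gene, read 6.46, 6.69 and 6.59 in R1881 arrays on 11719434_a_at, against 6.29, 6.40 and 6.39 in vehicle arrays. No arrays overlapped, and R1881 replicate 1 lay 0.06 above vehicle replicate 2. The change was 0.22 ± 0.07 (SE), a ratio of 1.16 with an interval of 1.04 to 1.30 and an adjusted p of 0.209. Its second set stood at 0.09.

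ETV5, also called ERM, is a PEA3 factor that fibroblast growth factors induce in many tissues. Its brightest set read 9.54, 9.52 and 9.46 in R1881 arrays and 9.54, 9.54 and 9.62 in vehicle arrays, which touch at 9.54. The change was -0.06 ± 0.05 (SE) with an interval of -0.17 to 0.05. The next set, 11720352_at, read 8.37, 8.60 and 8.38 in R1881 arrays, against 8.65, 8.62 and 8.74 in vehicle arrays, which did not overlap, and stood at -0.22 with an adjusted p of 0.301 over all probe sets. The remaining 2 sets stood at 0.05 and -0.10. ETV1, known for its fusions with androgen-driven genes in prostate cancer, read 2.46 to 3.62 on all 8 of its sets and all arrays, below the background level. No direction is drawn from its changes of -0.13 to 0.15, whose adjusted p was 0.447 or more.

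PHLDA1, a protein with a pleckstrin homology-like domain that responds to growth factors, was the one gene with a called probe set. Its brightest set, 11721305_a_at, read 11.29, 11.37 and 11.38 in R1881 arrays, against 11.51, 11.66 and 11.67 in vehicle arrays. The groups did not overlap. The change there was -0.27 ± 0.06 (SE), a ratio of 0.831 with an interval of 0.755 to 0.916 and an adjusted p of 0.0843 over all genes.

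The PHLDA1 set 11721307_at read 9.44, 9.43 and 9.51 in R1881 arrays, against 9.90, 9.78 and 9.77 in vehicle arrays. Every R1881 array lay at least 0.26 below every vehicle array. It fell by 0.36 ± 0.06 (SE) on the log2 scale, with a limma adjusted p of 0.0310 over the 49193 probe sets, of which 1.54% passed, 1.12% higher and 0.427% lower. The other 2 sets stood at -0.19 and -0.21, so all 4 PHLDA1 sets had the same sign, and each had an unadjusted p under 0.05.

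Over the 35 probe sets, of which 34 carried distinct values, that 1 set of PHLDA1 passed, and 24 lay above background. At an unadjusted p under 0.05 stood 11 of the 34 distinct sets, 4 higher and 7 lower, against 12.5% of all probe sets, 6.14% higher and 6.32% lower. That share too includes dim sets, since 27648 of the 49193 lay above background. Names ending in s or x before "_at" mark 10 of the 35 sets, whose probes may also match other transcripts. The brightest sets of SPRY4, SPRED1, ETV5 and ETV1 are among them.

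**Figure D2:**
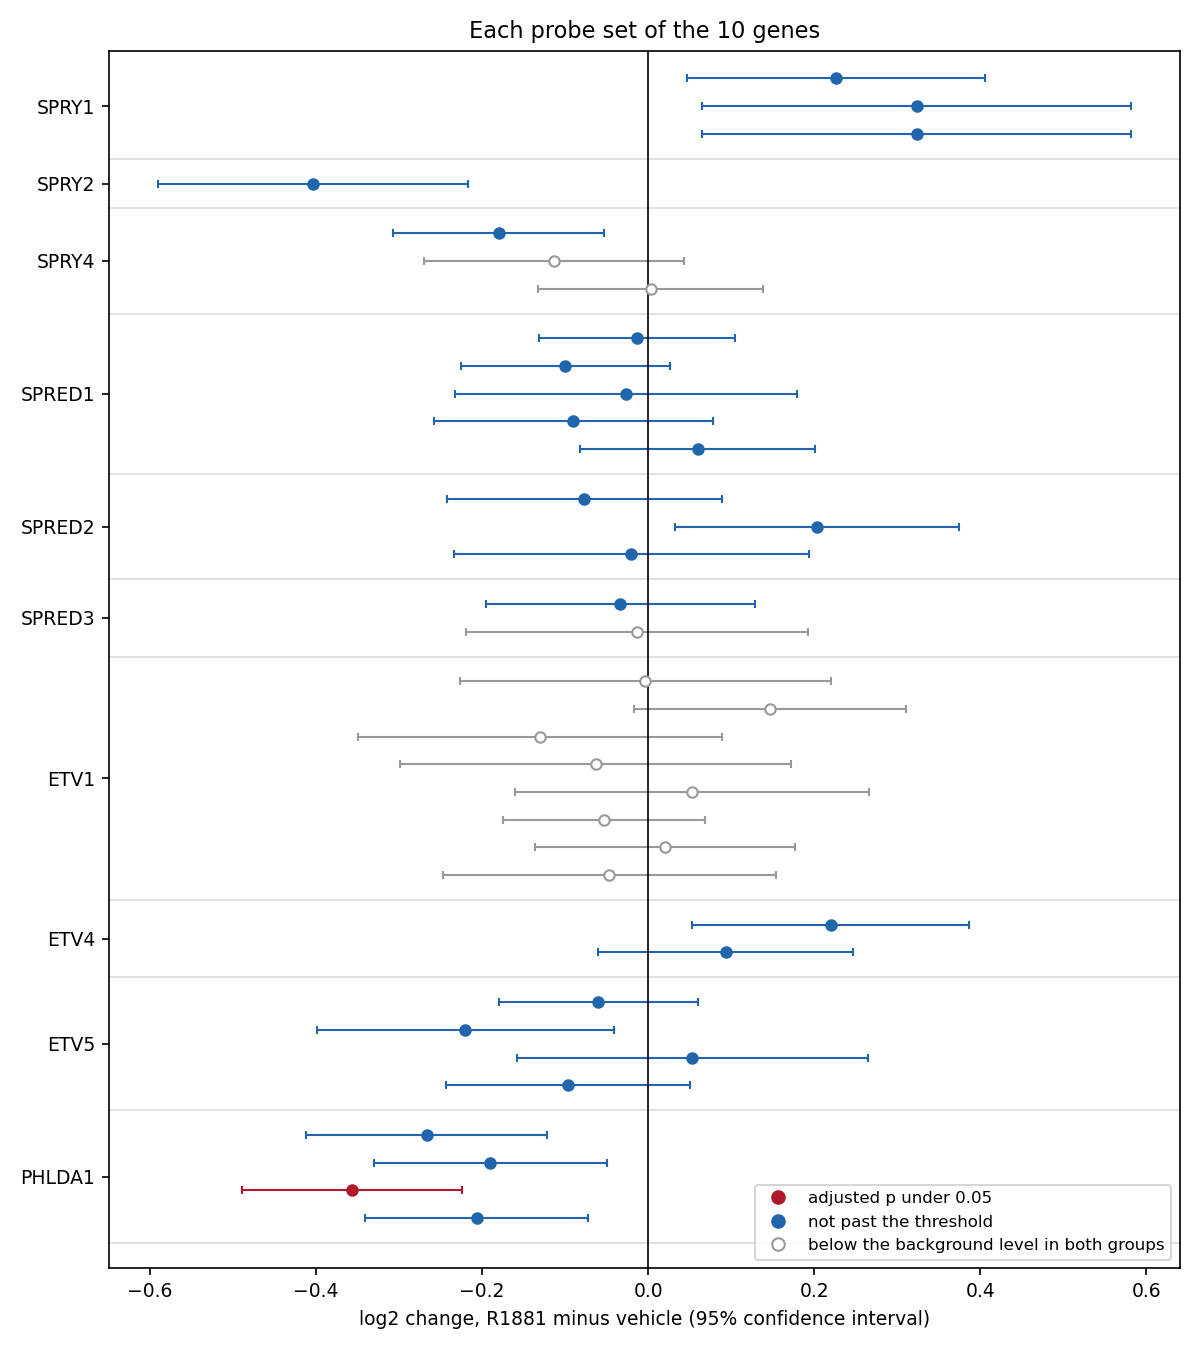
Log2 change, R1881 minus vehicle (x axis), with its 95% confidence interval for each of the 35 probe sets, grouped by gene and ordered from bright to dim. Filled points lie above background in at least 1 group and open points below it in both, and the red point, a PHLDA1 set at -0.36, is the one with an adjusted p under 0.05.

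For SPRY2 and PHLDA1 the call turned on the fit. Both passed with a trended and robust prior (adjusted p = 0.0128 for SPRY2 and 0.00872 for PHLDA1, where 2.32% of all genes passed lower), with array weights (0.0404 and 0.0350, 0.960% lower), without dim genes (0.0206 and 0.0330, 3.02% lower) and with all probe sets of a gene averaged (0.0379 and 0.0133, 1.01% lower). SPRY2 alone passed with each array centred on its median (0.0457, 0.921% lower) and without R1881 replicate 2 (0.0281, 0.314% lower). Without another single array SPRY2 had an adjusted p of 0.113 to 0.184, and PHLDA1 of 0.0507 to 0.256 without any 1 of the 6. The PHLDA1 set 11721307_at lost its call with any 1 array left out (0.0800 to 0.143) and with the replicate number as a block (0.112). Over probe sets, 3 of the 35 passed with the trended and robust prior and without dim probe sets, those of SPRY2 and 2 of PHLDA1, where 1.33% and 2.03% of all passed lower, and SPRY2 alone passed without R1881 replicate 2, where 0.114% did. In all 15 alternatives the log2 change stayed below 0, between -0.48 and -0.36 for SPRY2 and between -0.36 and -0.24 for PHLDA1. Without vehicle replicate 1, the array farthest out on the second component, the changes were -0.44 for SPRY2 (adjusted p = 0.113) and -0.32 for PHLDA1 (adjusted p = 0.0507).

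**Figure D3:**
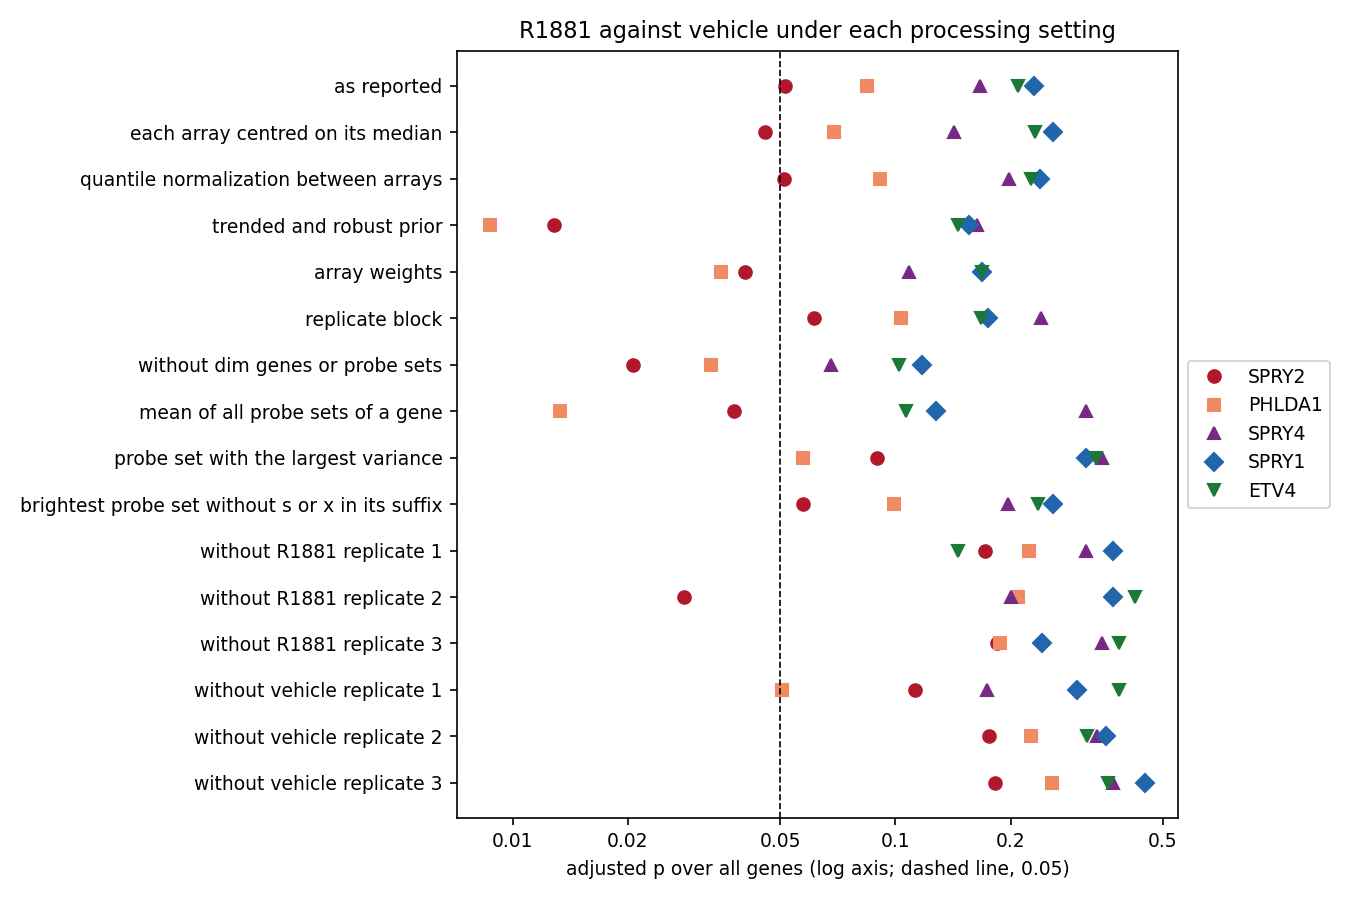
Adjusted p over all genes (x axis, log scale) for the 5 genes whose groups do not overlap, under the reported fit and each of the 15 alternatives (rows), with the threshold of 0.05 dashed. SPRY2 and PHLDA1 sit on either side of the line depending on the row, and SPRY4, SPRY1 and ETV4 lie to its right in every row.

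The 10 genes were then set beside other genes of the pathway. Over all genes 1.6% passed higher and 0.816% lower, and 14.3% stood at an unadjusted p under 0.05, as for the counts above. Of 19 measured genes of the cascade from adaptors to ERK, none passed the limma test in either direction, with 2 at an unadjusted p under 0.05 and a median log2 change of 0.05. The adaptor gene SHC1, which had the smallest p, stood at 0.21 ± 0.05 (SE) with an adjusted p of 0.10. None of the 14 receptor tyrosine kinase genes in the list passed either, with 3 at an unadjusted p under 0.05 and a median of 0.07, and the receptor gene AXL stood at -0.21 ± 0.04 with an adjusted p of 0.0609. TEK, a receptor tyrosine kinase gene outside that list, held among the endothelial markers, rose by 1.28 ± 0.14 (SE; adjusted p = 0.00550), reading 4.78, 5.28 and 4.94 in R1881 arrays, against 3.88, 3.51 and 3.76 in vehicle arrays. Only R1881 replicate 2 lay above the background level.

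Ligands of the epidermal growth factor receptor moved in both directions. Of 13 measured receptor ligands 1 rose, 2 fell and 10 did not pass, with 4 at an unadjusted p under 0.05 and a median of -0.03. TGFA, which encodes transforming growth factor alpha, read 6.02, 6.13 and 6.18 in R1881 arrays, against 5.53, 5.41 and 5.40 in vehicle arrays. The groups lay well apart, and TGFA rose by 0.66 ± 0.06 (SE; adjusted p = 0.00250). It did not pass with the mean of its probe sets (0.21, adjusted p = 0.0544). HBEGF read 8.43, 8.44 and 8.47 in R1881 arrays, against 9.23, 9.25 and 9.31 in vehicle arrays, and EREG 7.62, 7.70 and 7.48 against 8.34, 8.23 and 8.26. Both of these ligand genes fell, with adjusted p of 2.25e-04 and 0.00335, and EREG did not pass with the mean of its probe sets (-0.35, adjusted p = 0.102).

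Of 18 measured ERK-induced genes outside the 10, 1 passed higher and 4 passed lower, leaving 13. At an unadjusted p under 0.05 stood 10 of the 18, and the median was -0.14. HBEGF and EREG are in this list too, so those falls are the same measurements. The early response genes IER3 and IER2 had opposite signs, at 0.73 and -0.40, and both passed. The ERK phosphatase genes DUSP4, DUSP6 and DUSP5, which act in the same feedback as the Sproutys, stood at -0.27, -0.23 and 0.26, with adjusted p of 0.0276, 0.0777 and 0.0968. DUSP4 did not pass with any 1 array left out (0.0633 to 0.120), with the probe set of largest variance (0.118) or with the replicate number as a block (0.0929).

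Of 13 measured partners of Sprouty and SPRED proteins 1 rose and none fell, with 4 at an unadjusted p under 0.05 by limma and a median of 0.05. This was CAV1, caveolin-1, a membrane scaffold that binds Sproutys, which read 12.63, 12.67 and 12.62 in R1881 arrays, against 12.22, 12.24 and 12.18 in vehicle arrays. The arrays within each group lay within 0.06 of one another, and CAV1 rose by 0.43 ± 0.04 (SE; adjusted p = 0.00343).

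Among 19 measured ETS factors outside the PEA3 group and regulators of PEA3 factors, 2 passed higher and none lower, with 5 of the 19 at an unadjusted p under 0.05 and a median of 0.03. ETS2, an ETS factor that ERK phosphorylates, read 8.49, 8.63 and 8.59 in R1881 arrays, against 8.06, 7.98 and 8.08 in vehicle arrays, and rose by 0.53 ± 0.05 (SE; adjusted p = 0.00410). ETS1, its close relative, read 12.08, 12.15 and 12.11 against 11.68, 11.71 and 11.77, and rose by 0.39 ± 0.05 (adjusted p = 0.00682). Neither gene's groups overlapped, and ETS1 did not pass on its probe set of largest variance (0.39, adjusted p = 0.261). The PHLDA1 relatives PHLDA2 and PHLDA3 stood at 0.17 and -0.12 and did not pass, with 1 of the 2 at an unadjusted p under 0.05 by limma.

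**Figure D4:**
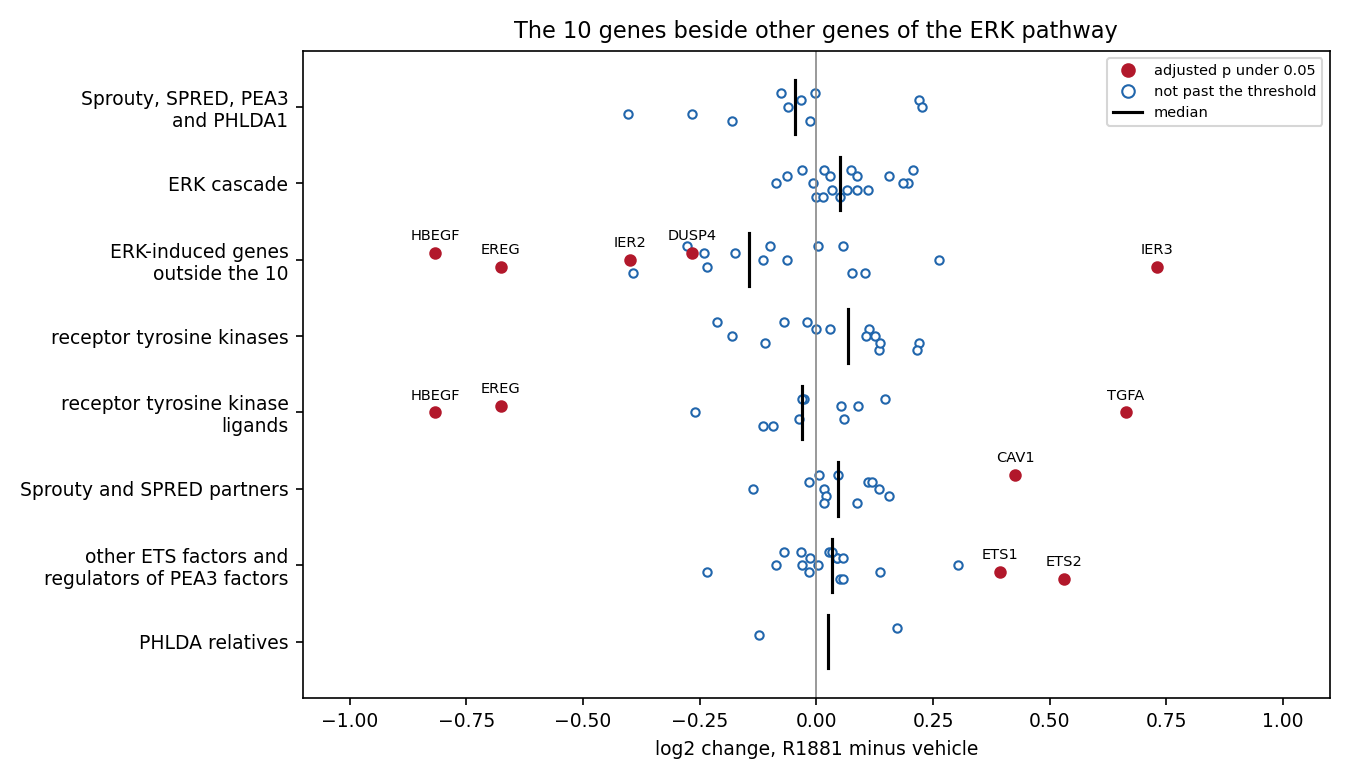
Log2 change, R1881 minus vehicle (x axis), of the 10 genes (top row) and of 7 lists of other pathway genes, 1 point a gene, with the median of each row as a black bar. Filled red points, named, have an adjusted p under 0.05; none lies in the top row, where values run from -0.40 to 0.23, and HBEGF and EREG appear in 2 rows.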

How the data were processed

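Total RNA of 6 samples of UMUC3-c31 cells was hybridised to Affymetrix arrays, 3 with R1881 and 3 with vehicle, grouped by the labels. The deposited log2 values come from RMA as run by the authors (per the submitters' processing notes) and are rounded to 2 decimals. RMA equalises the distribution of values between arrays, so a shift of most transcripts in one direction would not be seen. Its version, filters and scanner files were not used here. The number of arrays limits the precision.

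Probe sets were named through the platform annotation: 44898 had 1 gene symbol, 1825 several and 2470 none. A gene was represented by its probe set with the highest mean over the 6 arrays. R1881 and vehicle were compared with limma 3.58.1 in R 4.3.3 (lmFit, eBayes, no trend), over 18129 genes and separately over all 49193 probe sets, with two-sided p-values adjusted by the Benjamini-Hochberg method and a threshold of 0.05. An adjusted p is over all genes unless probe sets are named. Confidence intervals are at 95% from the moderated fit. The background level, 4.99, is the 90th percentile of the means of 423 olfactory receptor and keratin-associated protein genes. The fit was tested on simulated data.

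The 10 genes, the pathway lists and the markers were chosen with earlier results of these data known. From each pathway list the text names the members that passed (at most 4, by p) or else the one with the smallest p. DUSP4, DUSP5, DUSP6, PHLDA2 and PHLDA3 were added after their values were seen. TEK, an endothelial marker that passed, was set beside the receptor list outside this rule. The promoters shown were likewise chosen by the p and direction of their genes. A planned search for genes with a like pattern named none, since it started from a called member gene. The alternatives were other scalings, priors, weights, filters and probe set rules, a replicate block and leaving out each array.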

Additional observations from a re-analysis of the deposited data

How the results depend on the processing

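Over all genes 438 passed, but 895 with a trended and robust prior, 757 without dim genes, 280 on the probe set of largest variance, 222 with the replicate block, and 209 to 270 without any 1 array (225, 209 and 226 when R1881 replicates 1 to 3 were dropped in turn, and 270, 243 and 223 when those of vehicle were). Over all probe sets 759 passed, against 1525, 1383, 372 with the block, and 302 to 406. Of the 10 genes none passed, against 2 with the trended and robust prior, with array weights, without dim genes or with the mean of probe sets, 1 with median-centred arrays and 0 to 1 without any 1 array. Of their 35 probe sets 1 passed, against 3 with the trended and robust prior or without dim probe sets, 0 with the block, and 0 to 1 without any 1 array. Of the pathway lists' genes 9 passed, against 17 with that prior, 15 without dim genes and 8 without any 1 array. Fewer arrays or fewer features were tested in the leave-outs and the dim filter by construction; elsewhere the cause was not tested.

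Of the 10 genes, 4 near 0 changed sign: SPRED2 stood at 0.036 with the mean of its probe sets and at 0.20 on the one of largest variance, and ETV1 at 0.15 without s or x sets. Without any 1 array ETV1 ran from -0.082 to 0.10, SPRED1 from -0.027 to 0.013 and SPRED3 from -0.078 to 0.022. Same-numbered arrays of the groups deviated together only weakly (correlations of 0.09, 0.06 and 0.03 over genes), yet each correlated best with its own number. Whether the numbers pair the samples cannot be told from these values. The reported fit left the numbers out. With the number as a block, the SE of the SPRY2 change was 0.057 against 0.078, and its limma adjusted p was 0.0614. Low signal limits ETV1, of which no probe set exceeded background.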
